A study of Mus musculus with 8 samples.

Results

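The cytosolic heat shock chaperones were followed in the hearts of AE3-null and wild-type mice. The group held 10 genes of 23282 in all, chosen by name with earlier results of these data known. They were found in the deposited count table by Entrez number. They were the inducible HSP70 genes Hspa1a (Entrez 193740) and Hspa1b (15511), the constitutive HSP70 gene Hspa8 (15481), the HSP90 genes Hsp90aa1 (15519) and Hsp90ab1 (15516), the HSP110 gene Hsph1 (15505), the HSP40 genes Dnajb1 (81489) and Dnaja1 (15502), the co-chaperone gene Bag3 (29810) and the heat shock factor gene Hsf1 (15499). All 10 passed the filter on low counts and were among the 14136 genes tested. RNA was sequenced from hearts of 4 AE3-null and 4 wild-type (WT) mice, all male, of the FVB/N strain and 4 months old. The gene Slc4a3 encodes AE3, which swaps chloride for bicarbonate across the membrane of heart muscle cells. The labels give no further detail of the null allele. No treatment is named for either genotype.

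HSP70 proteins bind unfolded stretches of other proteins and release them in cycles driven by ATP. HSP40 proteins bring clients to HSP70 and stimulate its ATPase, while HSP110 and BAG proteins help it to exchange nucleotide and let go of the client. HSP90 acts later, on kinases, receptors and myosin, and HSF1 is the transcription factor that raises many of these genes when unfolded proteins accumulate. In the heart these genes respond within minutes to hours to heat, ischaemia and mechanical load, and Bag3 serves the turnover of damaged Z-disc proteins.

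HSF1 binds arrays of the unit GAA in alternating orientation, so promoter sequences from RefSeq (GRCm38.p6, the C57BL/6J genome) were searched for a pair of such units, GAANNTTC or TTCNNGAA, and for 3 units in a row. Each form of the pair reads the same on both strands, and a stretch of 3 units holds a pair of each form. The windows run from 250 bases before to 50 after the annotated start, and 6 of the 10 members had one, while Hspa8, Hsp90aa1, Hsp90ab1 and Hsf1 did not. A pair was found in a window of Hspa1a, Hspa1b, Hsph1, Dnaja1 and Bag3 and in none of Dnajb1, that is in 5 of 6 members, against 17% of all 27025 genes with a window. A stretch of 3 units, the pair TTCNNGAA followed by NNTTC, occurred in Hsph1 alone among the 6, while 0.662% of all genes held this or the opposite 3-unit form (GAANNTTC followed by NNGAA). A match describes the letters in the window only. The windows below are shown because Hspa1a and Hspa1b had the widest and Bag3 the narrowest spread between WT hearts, and Hsph1 for its 3 units, with the matched units in capitals, 5′ to 3′ on the gene's strand. They lie at chr17:34972107-34972406 (minus strand) for Hspa1a, chr17:34959189-34959488 (minus strand) for Hspa1b, chr5:149636287-149636586 (minus strand) for Hsph1 and chr7:128523333-128523632 (plus strand) for Bag3.
Hspa1a: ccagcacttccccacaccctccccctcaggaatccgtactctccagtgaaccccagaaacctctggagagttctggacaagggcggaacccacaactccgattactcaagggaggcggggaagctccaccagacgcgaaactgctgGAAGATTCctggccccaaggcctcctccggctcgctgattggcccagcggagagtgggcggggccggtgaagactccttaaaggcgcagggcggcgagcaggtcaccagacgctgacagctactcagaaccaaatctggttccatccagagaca
Hspa1b: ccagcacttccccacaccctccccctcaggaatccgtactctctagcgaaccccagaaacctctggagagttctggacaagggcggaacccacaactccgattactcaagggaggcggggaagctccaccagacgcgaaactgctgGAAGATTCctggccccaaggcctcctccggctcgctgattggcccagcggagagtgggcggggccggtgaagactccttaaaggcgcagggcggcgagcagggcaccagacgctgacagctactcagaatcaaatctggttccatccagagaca
Hsph1: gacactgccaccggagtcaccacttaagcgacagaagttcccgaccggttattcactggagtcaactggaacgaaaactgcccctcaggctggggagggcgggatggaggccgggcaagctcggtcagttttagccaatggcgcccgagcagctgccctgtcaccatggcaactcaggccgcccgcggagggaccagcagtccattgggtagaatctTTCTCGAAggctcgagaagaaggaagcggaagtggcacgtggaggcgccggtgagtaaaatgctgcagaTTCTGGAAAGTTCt
Bag3: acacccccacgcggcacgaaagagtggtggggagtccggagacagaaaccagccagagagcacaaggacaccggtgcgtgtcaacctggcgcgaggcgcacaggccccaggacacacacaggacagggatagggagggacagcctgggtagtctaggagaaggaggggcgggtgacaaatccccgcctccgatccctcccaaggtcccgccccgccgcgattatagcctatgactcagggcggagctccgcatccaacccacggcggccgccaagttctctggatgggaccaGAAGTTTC
The pair in Hspa1a and in Hspa1b began 104 bases before the start, and these 2 windows differed at 4 of 300 bases. The Hsph1 window shown held a pair 33 bases before the start and the 3-unit stretch from 36 bases after it. Hsph1 has another annotated start, from which the same pair lay 54 bases before and the stretch began 15 bases after.

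Total counts ranged from 9133628 to 27078351 in AE3-null libraries and from 14875281 to 19080858 in WT libraries. Values are CPM, the library's share of counts scaled by TMM factors, a correction for library composition. Slc4a3 stood at 31.5 to 34.6 CPM in AE3-null hearts against 378 to 389 CPM in WT hearts, so each library matched its label. All 8 cardiomyocyte markers examined, such as Myh6 and Tnnt2, were expressed, with summed levels of 84375 to 91270 CPM in AE3-null and 84719 to 91962 CPM in WT hearts. The lung markers Sftpc, Sftpa1 and Scgb1a1 had no count in any library.

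All 10 members had lower mean levels in AE3-null than in WT hearts, and none of the differences passed the test across all genes, of which 6.47% were called. In 9 of the 10 members, against 12% of all tested genes, WT replicates 1, 2 and 4 lay above every AE3-null heart. WT replicate 3 was the lowest WT heart in all 10 members, and lay inside the range of the AE3-null hearts in 9 of 10, against 50.6% of all tested genes. In Hspa1a, Hspa1b, Dnajb1 and Dnaja1 it lay below every AE3-null heart but replicate 3, and in Hsf1 below every one but replicate 1. This split of the WT hearts was made with the values known, so the shares are a description and not a test. Hspa1a and Hspa1b count as separate members in them, although their reads cannot be assigned with certainty.

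The inducible HSP70 genes varied most. Hspa1a and Hspa1b encode nearly identical proteins that are scarce in unstressed tissue and accumulate after stress. Hspa1b had 23.8, 24.8, 9.42 and 22.0 CPM in AE3-null replicates 1 to 4, against 63.3, 187, 10.8 and 48.1 CPM in WT replicates 1 to 4. Hspa1a had 21.7, 24.02, 8.58 and 21.1 CPM in AE3-null hearts, against 60.7, 172, 9.91 and 46.6 CPM in WT hearts. WT replicate 2 was the highest and WT replicate 3 sat near the bottom of the AE3-null range, so the genotypes overlapped through that 1 heart. Within WT hearts the highest level of Hspa1b was 17.3 times the lowest, and within AE3-null hearts 2.63 times. On the log2 scale the fold change (AE3-null over WT) was -1.96 for Hspa1b (SE 0.847, edgeR adjusted p = 0.258) and -1.95 for Hspa1a (SE 0.844, edgeR adjusted p = 0.258). Without WT replicate 2 these values were -1.05 and -1.08.

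Reads of these genes cannot be assigned with certainty. Their longest GENCODE transcripts were 98.9% identical over 2214 aligned positions, with 1 identical run of 638 bases, and 58.8% of the 50-base windows of Hspa1a also occur in Hspa1b. The level of Hspa1a was 91.1% to 97.0% of that of Hspa1b in AE3-null hearts and 92.1% to 96.9% in WT hearts. With their counts added into 1 row, the genes had a log2 fold change of -1.95 (SE 0.848, edgeR adjusted p = 0.261). The testis-enriched neighbour Hspa1l shares 7.95% of the 50-base windows of Hspa1a. It had 7.497, 10.2, 7.32 and 8.14 CPM in AE3-null hearts, against 15.8, 30.1, 9.45 and 16.6 CPM in WT hearts. As for Hspa1a, WT replicate 2 was the highest and WT replicate 3 the lowest WT heart.

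Hspa8, the constitutive HSC70 that folds nascent proteins in every cell, differed less in fold and more in absolute level. It had 1097, 1119.5, 965 and 1059 CPM in AE3-null hearts, against 1482, 1667, 1083 and 1471 CPM in WT hearts. WT replicates 1, 2 and 4 exceeded all AE3-null hearts, and WT replicate 3 fell among them. Its log2 fold change came to -0.43 (SE 0.135, edgeR adjusted p = 0.132). The inducible genes together amounted to 3.61% ± 1.17 of the Hspa8 level in AE3-null hearts and 9.56% ± 8.43 in WT hearts (SD, n = 4 each). By heart, this share was 4.14%, 4.36%, 1.87% and 4.07% in AE3-null replicates 1 to 4, against 8.36%, 21.5%, 1.91% and 6.44% in WT replicates 1 to 4. Reads that match both inducible genes may have been counted in each, in which case these shares are too high.

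**Figure D1:**
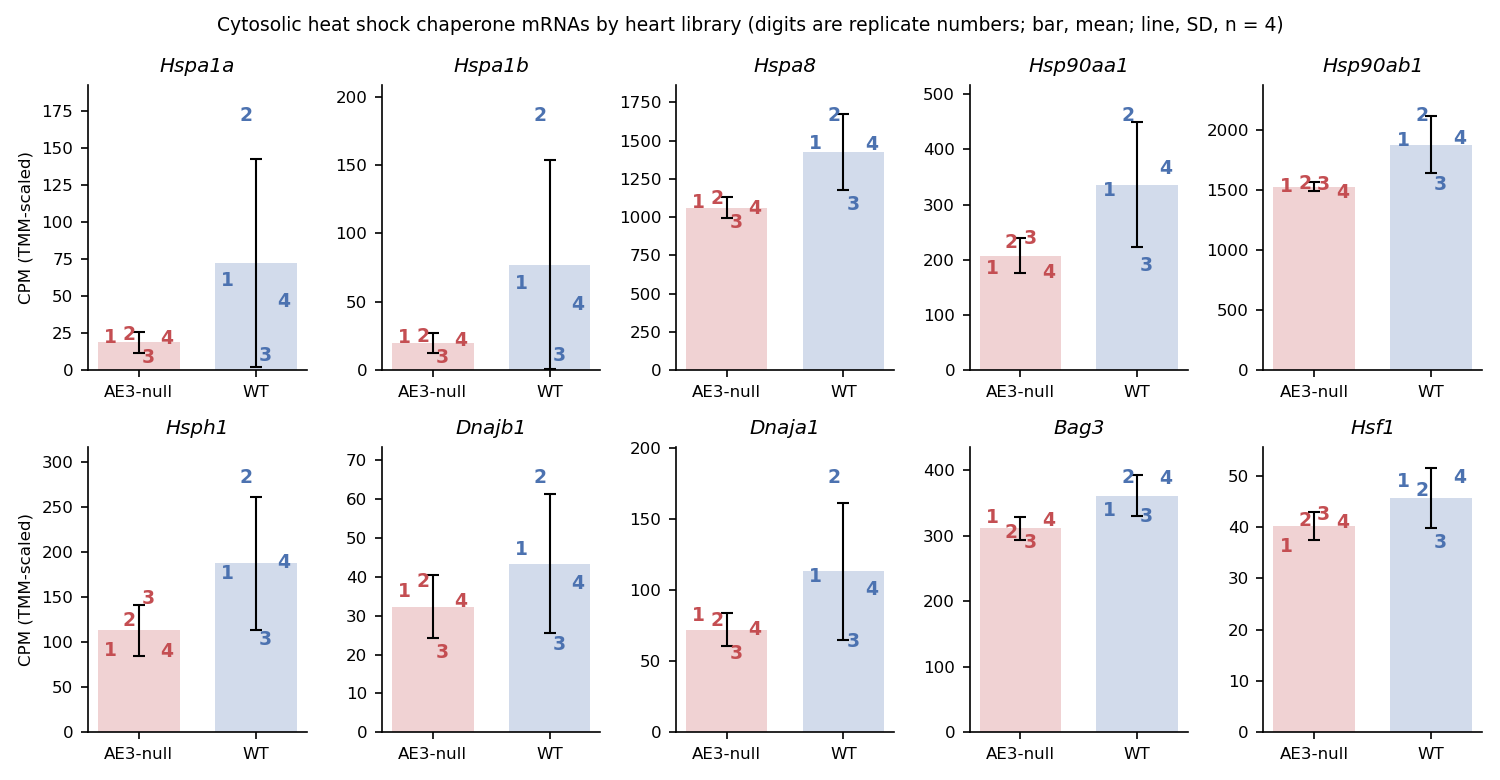
Levels of the 10 members in CPM (y axes, linear, each from 0) in AE3-null hearts (left, red) and WT hearts (right, blue). Digits are replicate numbers, bars the mean and lines the SD (n = 4). The digit 3 is the lowest WT value in all 10 panels.

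In both HSP90 genes WT replicate 2 was again the highest and WT replicate 3 the lowest WT heart. Hsp90aa1, the stress-inducible form, had 184, 230.4, 239 and 177 CPM in AE3-null hearts, against 326, 462, 189 and 365 CPM in WT hearts (log2 -0.70, SE 0.282, edgeR adjusted p = 0.229). Hsp90ab1, the constitutive form, had 1533, 1559, 1549 and 1476 CPM in AE3-null hearts, against 1915, 2124, 1549.7 and 1928 CPM in WT hearts (log2 -0.30, SE 0.087, edgeR adjusted p = 0.0950). The AE3-null hearts lay close together in Hsp90ab1, with a coefficient of variation of 2.43%, against 12.8% in WT hearts. Hsp90aa1 amounted to 13.6% ± 1.81 of the Hsp90ab1 level in AE3-null hearts and 17.5% ± 4.02 in WT hearts (SD, n = 4 each). That share was 12.2% in WT replicate 3 and 17.0% to 21.7% in the other WT hearts, against 12.0% to 15.4% in AE3-null hearts.

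Hsph1, the HSP110 that acts as a nucleotide exchange factor and holds unfolded proteins, had 90.6, 124, 148 and 89.9 CPM in AE3-null hearts, against 176, 282, 103 and 188 CPM in WT hearts. Hsph1 had a log2 fold change of -0.73 (SE 0.341, edgeR adjusted p = 0.287), and WT replicate 3 alone overlapped with AE3-null hearts. Without WT replicate 2 the log2 fold change of Hsph1 was -0.47. The HSP40 gene Dnaja1 had 82.1, 78.4, 55.8 and 72.7 CPM in AE3-null hearts, against 109.6, 179, 64.1 and 101 CPM in WT hearts (log2 -0.65, SE 0.325, edgeR adjusted p = 0.322). Again only WT replicate 3 lay in the AE3-null range.

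Dnajb1, the HSP40 partner of inducible HSP70, was the 1 member in which WT replicates 1, 2 and 4 did not all lie above the AE3-null hearts. It had 36.3, 38.8, 20.5 and 33.7 CPM in AE3-null hearts, against 47.0, 65.5, 22.6 and 38.4 CPM in WT hearts. WT replicate 4 also lay inside the AE3-null range, and the log2 fold change of -0.43 (SE 0.361) had the largest adjusted p of the members (edgeR, 0.564). Without WT replicate 2 it was -0.17, and that of Dnaja1 was -0.34.

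Bag3, the co-chaperone that links HSP70 to small heat shock proteins and autophagy in muscle, was the 1 member whose genotypes did not overlap. It had 328, 304, 290.2 and 323 CPM in AE3-null hearts, against 339, 389, 329 and 387 CPM in WT hearts, and the nearest values, 328 and 329, almost met. Of all tested genes, 6.15% had every AE3-null heart below every WT heart. Its log2 fold change came to -0.21 (SE 0.060, edgeR adjusted p = 0.0556), the smallest adjusted p of the 10. Hsf1, the regulator itself, had 36.2, 41.3, 42.3 and 40.9 CPM in AE3-null hearts, against 48.9, 47.0, 36.9 and 49.6 CPM in WT hearts (log2 -0.19, SE 0.087, edgeR adjusted p = 0.243). Its WT replicates 1, 2 and 4 stood above all AE3-null hearts, and WT replicate 3 was near their lowest.

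On a scale of CPM per kb of annotated exons, which allows levels of different genes to be set side by side, Hsp90ab1 was the most abundant member at 607 ± 14.7 in AE3-null and 746 ± 95.1 in WT hearts (SD, n = 4 each). Hspa8 followed at 443 ± 28.5 and Bag3 at 121 ± 6.74 in AE3-null hearts, against 596 ± 103 and 141 ± 12.3 in WT hearts. Hsp90aa1 and Hsph1 came next in both genotypes, at 61.4 ± 9.34 and 26.8 ± 6.66 in AE3-null hearts. The ranges of these neighbours did not overlap among AE3-null hearts. Among WT hearts the ranges of Hsp90ab1 and Hspa8, of Bag3 and Hsp90aa1, and of Hsp90aa1 and Hsph1 overlapped, and those of Hspa8 and Bag3 did not. Below them the order differed between the genotypes. Hsf1, Dnaja1 and Dnajb1, at 17.8, 12.5 and 10.1 CPM per kb, stood above Hspa1b and Hspa1a, at 7.13 and 6.36, in AE3-null means. In WT means Hspa1b and Hspa1a, at 27.5 and 24.4, stood above Hsf1, Dnaja1 and Dnajb1, at 20.2, 19.6 and 13.5. In WT hearts the ranges of all 5 of these genes overlapped, and in AE3-null hearts only Hsf1 stood clear of the other 4.

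In the test across all genes, none of the 10 members was called at an adjusted p under 0.05 by edgeR's quasi-likelihood test, against a background of 3.31% of tested genes called lower and 3.16% called higher. The adjusted p-values ran from 0.0556 to 0.564. At an unadjusted p under 0.05, 4 members were lower (Bag3, Hsp90ab1, Hspa8 and Hsp90aa1), against 11.2% of all tested genes (21% in either direction). DESeq2 called 3 lower (Hsp90ab1, Bag3 and Hspa8, with adjusted p of 0.00297, 0.0199 and 0.0249), and limma voom called Hspa8 and Hsp90ab1 (adjusted p 0.0304 and 0.0316). Over all genes DESeq2 called 505 lower and limma voom 449. The median log2 fold change of the members was -0.54, beside -0.0018 for all tested genes, and was -0.34 without WT replicate 2. With the counts of Hspa1a and Hspa1b summed, the member median was -0.43. Heart tissue holds many cell types, and fewer cells of a type and less RNA per cell cannot be told apart in these libraries.

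Leaving out WT replicate 3 changed these calls. With 7 libraries, 5 members fell by edgeR (adjusted p in parentheses): Hsp90ab1 by 0.38 on the log2 scale (1.20e-05), Hspa8 by 0.54 (0.000124), Hsf1 by 0.27 (0.00371), Bag3 by 0.25 (0.00937) and Hsp90aa1 by 0.89 (0.0344). Hspa1a, Hspa1b, Hsph1, Dnaja1 and Dnajb1 did not pass, with adjusted p from 0.0814 to 0.249 and log2 fold changes from -2.32 to -0.64. The background rose as well, to 6.33% of tested genes called lower. WT replicate 3 was the lowest WT heart for every member, so that leaving it out raises the WT level of each, and 4 WT hearts do not show which level is usual.

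**Figure D2:**
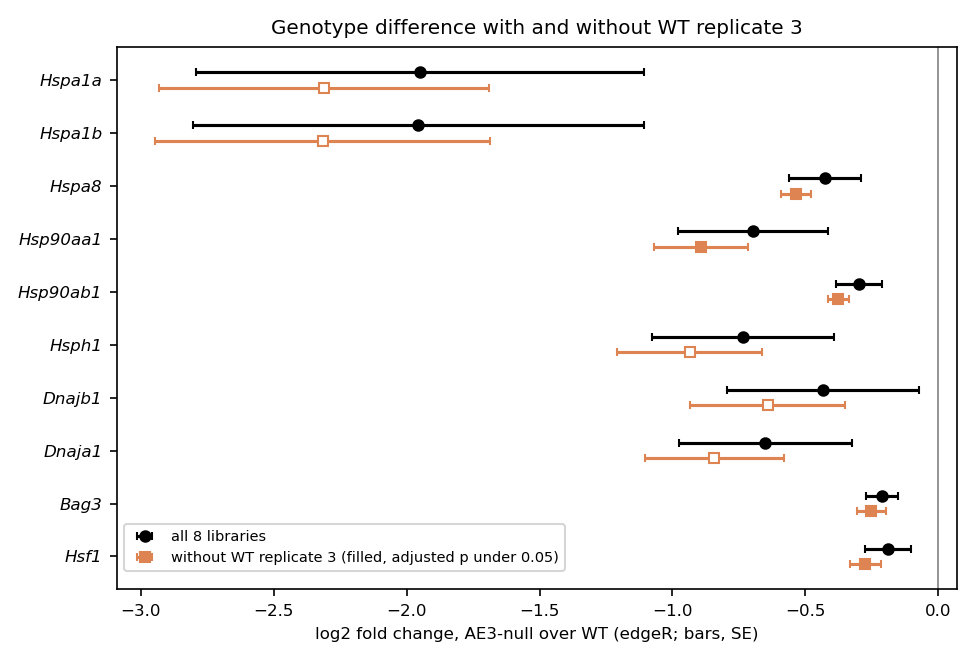
Log2 fold change of each member, AE3-null over WT (x axis; edgeR, bars are SE), with all 8 libraries (black) and without WT replicate 3 (orange; filled where the adjusted p is under 0.05). Values lie left of 0 in both fits, between -1.96 and -0.19 with all libraries, and 5 orange squares are filled.

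The spread between hearts was larger in WT than in AE3-null hearts for every member. In WT hearts the coefficient of variation ran from 8.73% for Bag3 to 98.7% for Hspa1b, against a median of 7.38% over all tested genes. In AE3-null hearts it ran from 2.43% for Hsp90ab1 to 36.9% for Hspa1a, against a median of 6.32%. The extreme WT hearts were largely shared: WT replicate 3 was the lowest WT heart in 10 of 10 members and in 30.4% of all tested genes. WT replicate 2 was the highest in 9 of 10, the exception being Hsf1, and in 26.3% of all tested genes. For 8 of 10 members WT replicates 1, 2 and 4 lay above all AE3-null hearts with WT replicate 3 inside their range, against 4.64% of all tested genes. The other pair were Bag3 and Dnajb1. Here too the WT hearts were split with the values known, so the shares are a description only, and Hspa1a and Hspa1b again count as separate members.

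The rest of the cytosolic chaperone system was examined by lists of related genes. Among 17 HSP90 co-chaperones 1 fell, none rose and 16 were not called, with a median log2 fold change of -0.10. The one that fell was Ptges3, the p23 protein that stabilises the closed HSP90 clamp. Ptges3 had 71.1, 72.3, 67.7 and 63.9 CPM in AE3-null hearts, against 89.4, 105.7, 76.4 and 88.4 CPM in WT hearts (log2 -0.39, SE 0.087, edgeR adjusted p = 0.0277), with no overlap. That call was lost with any library but WT replicates 2 and 3 left out. No gene was called by edgeR among 7 further HSP70 and HSP110 genes, 10 further HSP40 genes, 8 HSP70 co-chaperones, 14 TRiC and prefoldin subunits, 8 mitochondrial chaperones and the 3 tested genes Hsf2, Hsf4 and Hsbp1. Their medians lay between -0.11 and 0.03.

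Among those uncalled genes, the ones with the smallest p had small differences apart from Hspa1l (log2 -1.15, SE 0.367, edgeR adjusted p = 0.139). Hspa4l, an HSP110, had a log2 fold change of -0.30, the HSP40 genes Dnajb6 and Dnaja4 -0.14 and -0.34, and the HSP70 co-chaperones Bag2 and St13 -0.12 and -0.24. Cct7, a TRiC subunit, stood at -0.14 and the prefoldin subunit Pfdn6 at 0.16, and the mitochondrial partners Hspd1 and Hspe1 at -0.11 and -0.22. Their edgeR adjusted p-values ran from 0.0755 to 0.211. Hsf2, a second heat shock factor, and Hsbp1, which binds HSF1, had log2 fold changes of 0.03 and 0.09 (edgeR adjusted p 0.821 and 0.251). In neither did WT replicates 1, 2 and 4 all stand above the AE3-null hearts.

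Small heat shock proteins, which hold unfolded proteins until HSP70 takes them up, went both ways: of 7, 2 fell, 1 rose and 4 were not called, with a median of -0.01. Cryab, the lens and muscle crystallin, had 1470, 1551, 1535 and 1453 CPM in AE3-null hearts, against 1837, 2060.1, 1661 and 1966 CPM in WT hearts (log2 -0.32, SE 0.057, edgeR adjusted p = 0.00696). Here too WT replicate 3 was the lowest WT heart, but it lay above all AE3-null hearts. Hspb6 fell by 0.23 on the log2 scale, and Hspb2, which lies beside Cryab in the genome, rose by 0.23 (edgeR adjusted p 0.00293 and 0.0262). The call of Hspb2 was lost without AE3-null replicate 1, 3 or 4 or WT replicate 1 or 4, with adjusted p up to 0.103.

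Many chaperones of the endoplasmic reticulum are controlled by the unfolded protein response, while Serpinh1 is also known as a heat-inducible target of HSF1. Of 15 tested, 4 fell and 11 were not called, and their median log2 fold change was -0.18. Pdia3, a disulphide isomerase, fell by 0.21 on the log2 scale (edgeR adjusted p = 0.0210), the HSP110-like Hyou1 by 0.27 (0.0382), the collagen chaperone Serpinh1 by 0.47 (0.0416) and the isomerase Pdia6 by 0.16 (0.0434). Serpinh1 had 202, 222, 221 and 208 CPM in AE3-null hearts, against 305, 333, 235 and 303 CPM in WT hearts, with WT replicate 3 again the lowest WT heart. Its call was lost in 9 of 19 alternatives, that of Hyou1 in 7 and that of Pdia3 in 5. Without WT replicate 3, the counts that fell were 9 of 15 chaperones of the endoplasmic reticulum, 6 of 17 HSP90 co-chaperones, 3 of 10 further HSP40 genes and 2 of 7 further HSP70 and HSP110 genes, against 6.33% of all tested genes. In the same fit 1 of 14 TRiC and prefoldin subunits, 1 of 8 HSP70 co-chaperones, 1 of 8 mitochondrial chaperones and 0 of 3 heat shock factor and binding protein genes fell by edgeR. Of the 7 small heat shock proteins 2 fell and 2 rose. WT replicate 3 was the lowest WT heart in the summed level of each of these lists but that of heat shock factors. Leaving it out raises their WT level, so these counts are a description only.

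**Figure D3:**
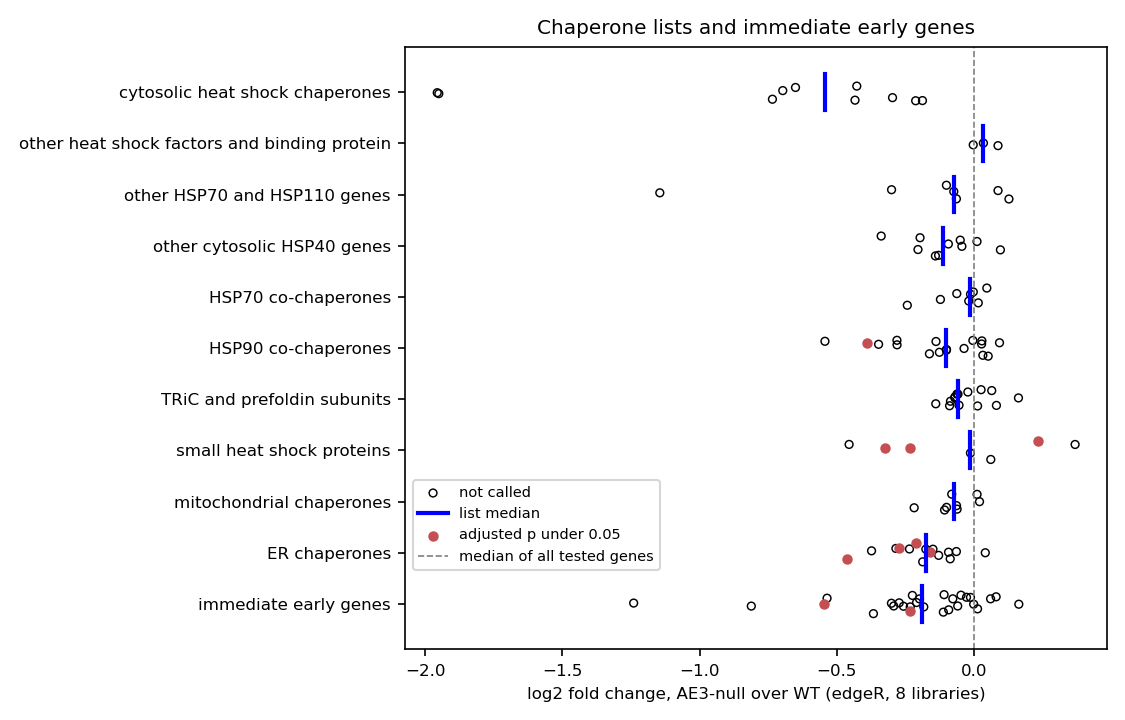
Log2 fold change, AE3-null over WT (x axis, edgeR with 8 libraries), of every tested gene in the chaperone lists and the immediate early list (rows; red, adjusted p under 0.05; blue bars, list medians; dashed line, median of all tested genes). The 10 members have a median of -0.54 and no red point, while ER chaperones have 4.

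Levels of other gene groups are given beside these results. Immediate early genes, which rise within minutes of handling or hypoxia, had summed levels of 1067 to 1389.6 CPM in AE3-null and 1098 to 1464.5 CPM in WT hearts over 28 genes, with WT replicate 3 the lowest WT heart. Of them 2 fell (Ppp1r15a by 0.24 and Maff by 0.55 on the log2 scale) and 26 were not called. The call of Maff was lost in 6 of 19 alternatives. Their median log2 fold change was -0.19. The 7 tested red blood cell markers summed to 3667 to 5073 CPM in AE3-null and 5286 to 8431 CPM in WT hearts, and 0 of 7 were called by edgeR. All but Slc4a1 had every AE3-null heart below every WT heart, as had 6.15% of all tested genes. Hba-a1 and Hba-a2 had equal levels in every library, and Hbb-b1 and Hbb-b2 nearly so, so the sum may hold the same reads more than once. In that sum WT replicate 3, at 6540 CPM, was not the lowest WT heart. The 12 endothelial markers summed to 1698 to 1752 CPM in AE3-null and 1892 to 2097 CPM in WT hearts, with 5 fallen and none risen, and WT replicate 3 was the lowest WT heart. The 7 atrial markers summed to 3884 to 4484 CPM in AE3-null and 2920 to 3480 CPM in WT hearts, with 6 risen, and WT replicate 3 stood at 2998 CPM. Of 10 fibroblast markers 3 fell and none rose, but 4 had a positive log2 fold change. Among these was Lum (0.31, edgeR adjusted p = 0.0657), higher in every AE3-null heart than in any WT heart. Of 9 smooth muscle and pericyte markers 2 rose and none fell, and of 11 macrophage markers none was called by edgeR. Over all tested genes 3.31% fell and 3.16% rose. The part of these cell types in the chaperone levels was not tested.

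Outside the group, the genes whose levels followed the 9 chaperone genes (all members but Hsf1) most closely over the 8 libraries were Tubb2b, Lats2, Fbxo46, Ttpal and Jmjd6. Likeness was the Pearson correlation of log2 CPM with the mean log2 CPM of the 9 genes, among 10659 candidates, and is given as a description. It was 0.99 for Tubb2b, a beta tubulin, 0.98 for Lats2, a kinase of the Hippo pathway, 0.98 for Fbxo46, 0.97 for Ttpal and 0.97 for Jmjd6, a nuclear oxygenase, with Spearman coefficients from 0.90 upward. Without the 2 libraries farthest from the median, WT replicates 1 and 2, the correlations ran from 0.91 to 0.98. Tubb2b had 26.4, 26.9, 24.3 and 25.3 CPM in AE3-null hearts, against 32.8, 36.9, 25.1 and 30.1 CPM in WT hearts. Its range was narrow beside that of Hspa1b, and its genotypes overlapped through WT replicate 3. None of the 5 was called by edgeR with 8 libraries (adjusted p from 0.0911 to 0.284). The mean of the 9 genes was not scaled by gene, so Hspa1a and Hspa1b, which varied most, weigh most in it. The correlation of each of the 9 with the mean of the others ran from 0.80 for Hsph1 to 0.98 for Hspa1b.

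**Figure D4:**
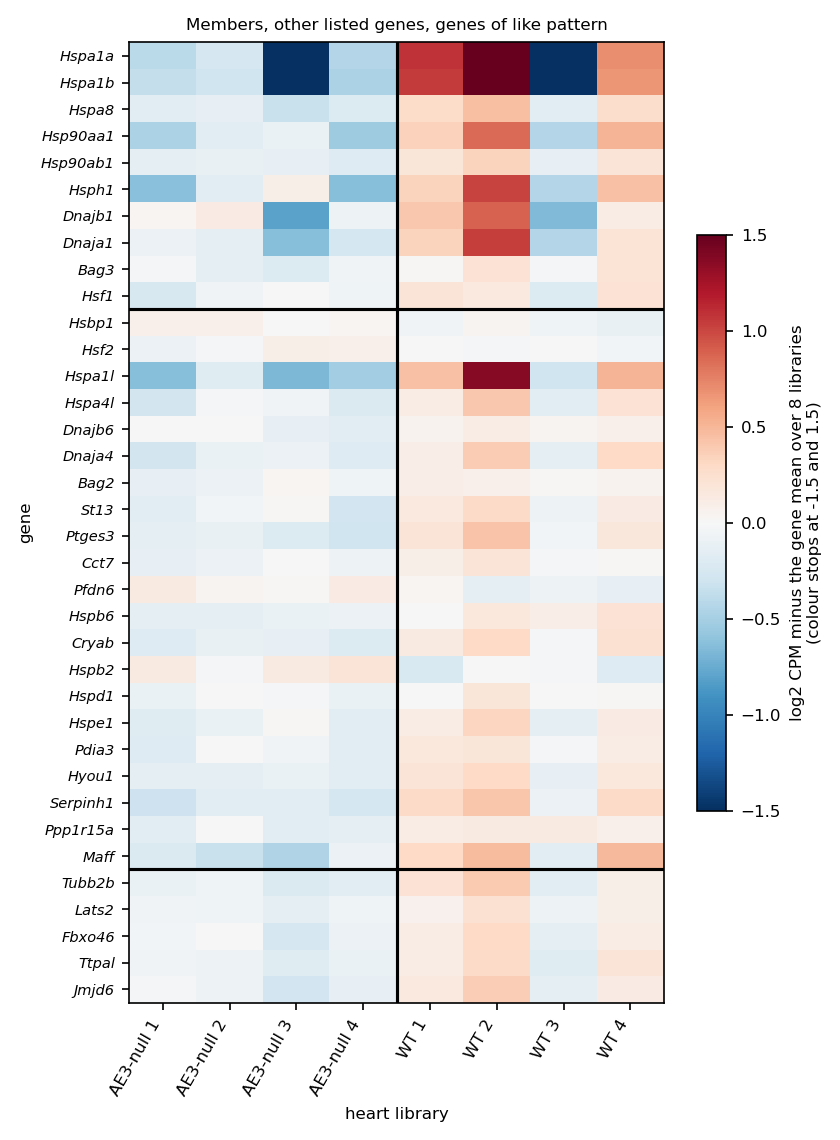
Log2 CPM of each gene minus its mean over the 8 libraries (colour, which stops at -1.5 and 1.5) by heart (columns; AE3-null left of the line, WT right of it). Rows are the 10 members, then the named genes of the other lists, then the 5 genes of like pattern. In the top block WT replicate 3 lies below the mean of each gene (blue), like most of the AE3-null values, and WT replicate 2 above it (red). In WT replicate 3 the blue is strong for Hspa1a and Hspa1b and faint for Bag3 and Hsp90ab1.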

How the data were processed

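RNA-seq read counts per gene were used as deposited by the authors, 1 column per library, and were not normalized. The submitters' processing notes name bcl2fastq, CASAVA 1.8, TopHat, DESeq and mouse build mm9. Counting program, strand setting, annotation and read filters were not given in these sources, so reads of near-identical or overlapping genes cannot be assigned with certainty. Entrez numbers were named from a RefSeq table of GRCm38.p6, which matched 23185 of 23282 genes. Libraries were grouped by their titles. The labels do not tie replicates to litters or batches. Since nothing beyond the design text's count of animals separates them, p-values measure the spread between libraries.

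Genes were kept by filterByExpr (minimum count 10). AE3-null was compared with WT by edgeR's quasi-likelihood F test with TMM factors, robust moderation and no covariates, adjusted by the Benjamini-Hochberg method over 14136 genes and called under 0.05. Each SE was the absolute fold change (log2) over the root of F. No set test was run. CPM means are ± SD over 4 libraries. The tests were checked on simulated counts. Between libraries of 1 genotype the chi-square per gene was 2.59 to 7.75, above sampling noise in each pair. The pairs with WT replicate 3 held the highest values, 6.61 to 7.75, and the other WT pairs 5.02 to 5.40. Exon and transcript lengths came from GENCODE M21, of another build than the counts. Named genes were all members, up to 3 called genes of each list (or the 2 with the smallest p), and the 5 genes of like pattern. Pdia6 was named after its values were seen. Members and lists were chosen with earlier results of these data known. The versions used were DESeq2 1.42.0, limma 3.58.1, edgeR 4.0.16 and R 4.3.3. Alternatives were other scalings, filters and tools, a threshold of 0.1, each library left out, a replicate block, summed Hspa1a and Hspa1b, and the 10 most abundant genes left out.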

Additional observations from a re-analysis of the deposited data

Results flagged for a closer look

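In groups of 4 hearts, a value was picked out where its gap to the nearest other heart exceeded Dixon's critical share of the group's range. Of 74 groups of named genes 2 met this, and chance alone would pick out about 5% of groups. Hspd1, the mitochondrial HSP60, had 379 CPM in WT replicate 2, against 335 to 337 CPM in the other WT hearts. Ppp1r15a, a phosphatase subunit of the integrated stress response, had 37.8 CPM in AE3-null replicate 2, against 33.6 to 34.1 CPM in the other AE3-null hearts. No member of the cytosolic heat shock group met it.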

How the results depend on the processing

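The direction of all 10 members was lower in AE3-null hearts under every alternative run. The number of members called lower was 0, and was 1 with total counts only (Bag3), 3 with DESeq2, 2 with limma voom, 2 without robust moderation (Hspa8 and Hsp90ab1) and 2 at an adjusted p under 0.1 (Bag3 and Hsp90ab1). In the same order, 361, 505, 449, 431 and 815 of all genes were called lower. With each library left out the number of members called lower ran from 0 to 5. It was 1 without WT replicate 1 (Bag3), 5 without WT replicate 3 and 0 without any other library. Over all genes 915 were called (447 higher and 468 lower, but 528 and 361 with total counts only), 1546 at an adjusted p under 0.1, and 407 (without AE3-null replicate 4) to 1727 (without WT replicate 3) with 1 library left out. The count also moved by over 1.5 times without WT replicate 4 (431), AE3-null replicate 3 (569) or AE3-null replicate 1 (581). In the other chaperone lists 7 genes were called lower, 16 with DESeq2 and 14 at an adjusted p under 0.1, and 2 to 25 with 1 library left out, the 25 without WT replicate 3 and 2 or 3 without any other. Of the listed genes, the calls of Serpinh1, Hyou1, Ptges3, Maff, Pdia3 and Hspb2 were lost in 9, 7, 6, 6, 5 and 5 of 19 alternatives, those of Cryab, Hspb6 and Ppp1r15a held in all 19, and that of Pdia6 was not followed through them. The AE3-null minus WT difference in the HSP70 ratio, -5.95 percentage points, ran from -8.50 to -1.96 with 1 library left out, and that in the HSP90 ratio, -3.93, from -5.69 to -2.51. All 5 genes of like pattern stayed among the first 50 with log2 CPM centred within genotype and without WT replicate 3, but 2 and 3 of them stayed among the first 5.

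Replicate numbers are shared between the genotypes, but same-numbered libraries did not deviate together (correlations from -0.045 to 0.16, and 2 of 8 libraries correlated best with their own number). With the replicate number as a block, 1002 genes and 2 members (Hspa8 and Bag3) were called lower or higher, the members lower. The difference in Hspa1b did not pass the threshold, with 4 hearts per genotype and a 17.3-fold range among WT hearts. Whether more hearts would change this was not tested.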

Other observations

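AE3-null replicate 3 set the chaperones apart from each other. Relative to the mean of the other AE3-null hearts, this heart had 0.385 times the Hspa1a level, 0.401 times that of Hspa1b, 0.565 times that of Dnajb1 and 0.717 times that of Dnaja1. Hsph1 and Hsp90aa1 went the other way, at 1.46 and 1.21 times, and Hsp90ab1 was at 1.02 times. The higher Hsp90aa1 and Hsph1 were not particular to this heart. AE3-null replicate 2 had 230.4 and 124 CPM of them, against 239 and 148 CPM in AE3-null replicate 3. In replicate 2, though, Hspa1a and Hspa1b were the highest of the AE3-null hearts. In genes picked after their values were seen, Hspb1, a small heat shock protein, had 338 CPM in AE3-null replicate 3 and 240.2 to 287 CPM in the other AE3-null hearts, and Unc45b, the myosin chaperone, had 447 CPM there and 346 to 363 CPM in the others. In WT replicate 3 these genes were all low: Hspb1 had 252 CPM and Unc45b 330.5 CPM, against 360 to 474 CPM and 421 to 441 CPM in the other WT hearts. Low Hspa1a and Hspa1b beside higher Hsph1 and Hsp90aa1 therefore appeared in 1 AE3-null heart, and this split has no replicate.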
